A study of Rattus norvegicus with 3 samples.

Results

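Caldesmon, the tropomyosins, the actin binders synaptopodin 2 and nexilin, and the targeting subunits of myosin phosphatase were examined as 9 genes (Cald1, Tpm1, Tpm2, Tpm3, Tpm4, Synpo2, Nexn, Ppp1r12a and Ppp1r12b). A peak was counted for a gene when the authors' annotation gave that gene as its symbol or as the gene it lies in. The genes were chosen by name, by their role in the contractile apparatus, with their called peaks in both lists already known, so that having a peak is a description and not a test of the choice. The rule took 29 of 25521 peaks in the Control list and 10 of 9523 in the Myocd-LSD1 list, and all 9 genes had at least 1 Control peak. The peaks mark where HA-tagged TET2, an enzyme that oxidises 5-methylcytosine, was found by CUT&Tag, in which an antibody-held transposase cuts the DNA around a bound protein. All 3 samples were rat aortic smooth muscle cells (SMC) given the adenovirus Adv-HA-TET2 for 24 h, with 500000 cells per assay and an antibody against the HA tag, so the protein mapped was an overexpressed one in both groups. Control consisted of 2 samples of the line labelled WT, and Myocd-LSD1 of 1 sample of the line so labelled, named for myocardin, a coactivator of smooth muscle genes, and LSD1, a histone demethylase. The labels do not say whether either line is 1 clone. The study asked where TET2 sits in the 2 lines.

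In smooth muscle, the thin filament is built of actin with tropomyosin wound along it, and caldesmon binds both and restrains the myosin ATPase. Force also depends on phosphorylation of the myosin light chain, which myosin phosphatase removes; Ppp1r12a (MYPT1) and Ppp1r12b (MYPT2) encode subunits that bring this phosphatase to myosin, so they act on the thick rather than the thin filament. Several of these genes are driven by SRF and myocardin and serve as markers of the contractile state. The lists hold TET2 sites and no expression, so they cannot check the cell type. For reference, the Control list held 4 of 6 smooth muscle marker genes (Acta2, Tagln, Smtn and Myocd, but not Cnn1 or Myh11). The Myocd-LSD1 list held 0 of 6. The counts were 4 and 1 of 4 for endothelial and 2 and 0 of 4 for macrophage markers. Over the whole Control list, only 47.1% of 13947 genes reappeared in Myocd-LSD1, so a missing call there is common. Whether the smooth muscle markers differ from other genes in this was not tested.

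Each group was given as 1 list of called peaks, so no value has a replicate error and no test between the groups was possible. The fold enrichment below is the authors' value for each peak and is comparable only within its list. The pile-up is the number of overlapping fragments at a peak's summit, recovered from the deposited fold and p-value. It had a median of 7 in Control (interquartile range 5 to 12) and 5 in Myocd-LSD1 (3 to 7) over all peaks. The uniform background was 2.77 times as deep in Control (0.175 against 0.0633 fragments), close to the ratio of 2.68 in peak number, so fewer bound sites and a thinner library cannot be told apart from the number of peaks. Intervals printed beside shares are 95% intervals by the exact Clopper-Pearson method, for counting error alone. Shares without one, such as those by class, motif or processing setting, are descriptions only.

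To show the DNA before the start sites on which the comparison turns, 5 windows are printed, each the 250 bases before a start site in RefSeq's promoter table (build GRCr8, not the rn6 of the peaks), 5′ to 3′ on the gene's strand. Capitals mark CpG, the dinucleotide in which most 5-methylcytosine, the substrate of TET2, lies. Cald1 is shown at its outer start, with a peak in both lists, and at an inner start of the newer build. In rn6 only Control had a peak near an inner start of Cald1. The distance from the outer to the inner start differs between the builds, and whether the 2 inner starts are the same was not determined. Ppp1r12b had a peak across its start in both lists, Tpm1 in Control only and Ppp1r12a in Myocd-LSD1 only. For the printed genes, the transcripts checked for the peaks at these starts are in the newer annotation too. Whether each start is at the same base in the 2 builds was not determined. Ppp1r12a is annotated on the minus strand in the rn6 files and on the plus strand in GRCr8, and the other 3 genes on the same strand in both.
Cald1 outer start, chr4:64233006-64233255, plus strand: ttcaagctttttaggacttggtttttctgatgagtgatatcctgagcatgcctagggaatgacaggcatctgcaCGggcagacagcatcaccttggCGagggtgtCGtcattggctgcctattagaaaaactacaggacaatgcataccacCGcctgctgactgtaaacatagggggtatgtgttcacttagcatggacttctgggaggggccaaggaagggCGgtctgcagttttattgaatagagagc
Cald1 inner start, chr4:64343465-64343714, plus strand: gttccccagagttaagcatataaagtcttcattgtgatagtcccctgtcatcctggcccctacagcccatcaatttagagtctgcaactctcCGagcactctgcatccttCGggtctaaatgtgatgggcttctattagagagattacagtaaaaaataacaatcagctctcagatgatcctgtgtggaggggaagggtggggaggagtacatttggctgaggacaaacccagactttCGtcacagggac
Ppp1r12b, chr13:48948923-48949172, minus strand: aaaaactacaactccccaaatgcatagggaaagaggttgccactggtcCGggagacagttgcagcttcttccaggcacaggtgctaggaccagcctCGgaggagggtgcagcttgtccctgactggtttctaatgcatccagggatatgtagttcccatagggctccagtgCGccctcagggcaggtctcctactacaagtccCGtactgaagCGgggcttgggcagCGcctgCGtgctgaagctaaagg
Tpm1, chr8:76543416-76543665, minus strand: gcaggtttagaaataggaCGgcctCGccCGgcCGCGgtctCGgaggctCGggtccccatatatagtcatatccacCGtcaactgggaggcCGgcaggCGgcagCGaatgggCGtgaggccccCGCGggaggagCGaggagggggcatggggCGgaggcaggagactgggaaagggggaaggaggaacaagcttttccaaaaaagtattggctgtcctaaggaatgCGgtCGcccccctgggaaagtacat
Ppp1r12a, chr7:45369194-45369443, plus strand: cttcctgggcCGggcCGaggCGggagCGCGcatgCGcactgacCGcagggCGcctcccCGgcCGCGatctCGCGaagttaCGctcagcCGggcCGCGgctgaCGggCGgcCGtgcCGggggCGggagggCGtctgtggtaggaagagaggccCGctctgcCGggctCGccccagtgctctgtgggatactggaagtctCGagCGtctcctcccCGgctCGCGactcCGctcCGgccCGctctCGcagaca

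The CpG content of the printed windows ran from 3 to 35. The outer Cald1 window held 5 CpG and the inner one 3, Ppp1r12b held 7, Tpm1 18 and Ppp1r12a 35, against a median of 5 (interquartile range 2 to 15) over 33469 windows of the same length. All 9 genes matched the table, with 12 windows in all. Among the others, Nexn (29), Tpm4 (30), Tpm2 (18) and Synpo2 (11) lay above the median, and the 3 Tpm3 windows held 0, 18 and 20. For Tpm3 and Synpo2 the transcript of the peak is not in the newer table, so no window is printed for them.

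**Figure D1:**
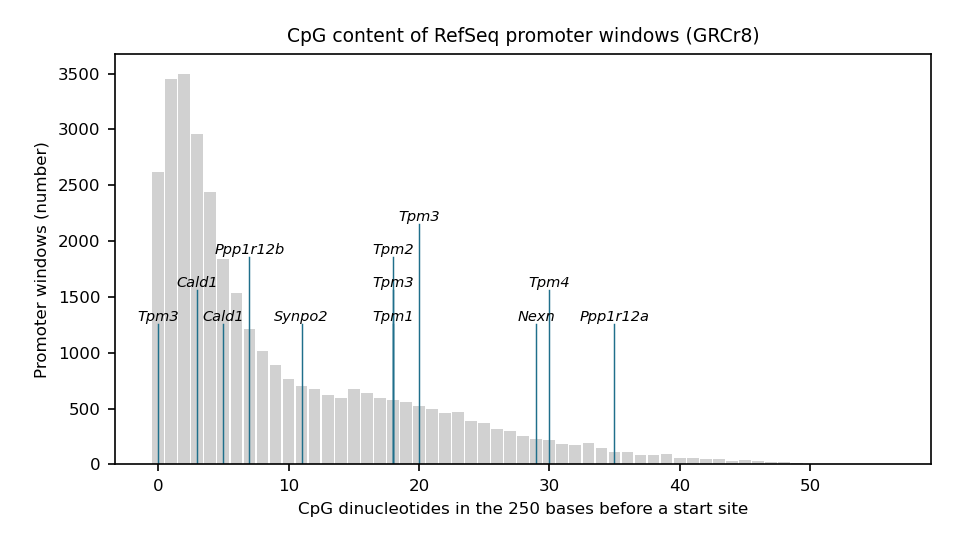
Number of RefSeq promoter windows (y axis) by the count of CpG dinucleotides in the 250 bases before a start site (x axis), with the 12 windows of the 9 genes marked by name (height of the marks has no meaning). The Cald1 windows (5 and 3) lie near the median of 5, and Ppp1r12a (35), Tpm4 (30) and Nexn (29) lie far above it.

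Matches to 5 motifs were counted on both strands of these windows. The CArG box, the SRF element of smooth muscle genes, had 0 matches in the 12 windows and was found in 1.50% of all windows, and the AP-1 element TGANTCA had 0 and 6.34%. CATTCC, the MCAT element of TEAD factors, was found in 3 windows, the outer Cald1, Tpm1 and Nexn windows, against 12.1% of all windows. CANNTG, the E-box, was found in 8 of 12 windows (65.5% of all) and CAGAC, a SMAD element, in 6 of 12 (42.9% of all). The Tpm3 windows with 18 and 20 CpG overlap in most of their bases, so the 12 windows are not independent. In Tpm1 the CATTCC match, read on the other strand as ggaatg, began 31 bases before the start, and in the outer Cald1 window 195 bases before it. A missing match says only that these letters are not in these 250 bases.

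TET2 peaks were present at all 9 genes in control cells and at 6 of them in Myocd-LSD1 cells, with 0 genes found in Myocd-LSD1 alone. The 6 were Cald1, Tpm2, Tpm3, Synpo2, Ppp1r12a and Ppp1r12b. Tpm1, Tpm4 and Nexn were found in Control only. This share of 6 in 9 (66.7%, interval 29.9 to 92.5) stands beside 47.1% over all genes with a Control peak, which lies within the interval. In the other direction, all 6 genes with a Myocd-LSD1 peak also had a Control peak, beside 82.3% of all 7991 such genes. When promoter peaks alone were counted (3 kb to either side of a start), 8 genes had one in Control, and 5 of the 8 had one in Myocd-LSD1 as well (62.5%, 24.5 to 91.5), beside 43.4% of all genes. Ppp1r12a, with a promoter peak in Myocd-LSD1 only, made a sixth. Of the 6 genes with a Myocd-LSD1 promoter peak, 83.3% had one in Control too, beside 74.1% of all 4067 such genes.

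**Figure D2:**
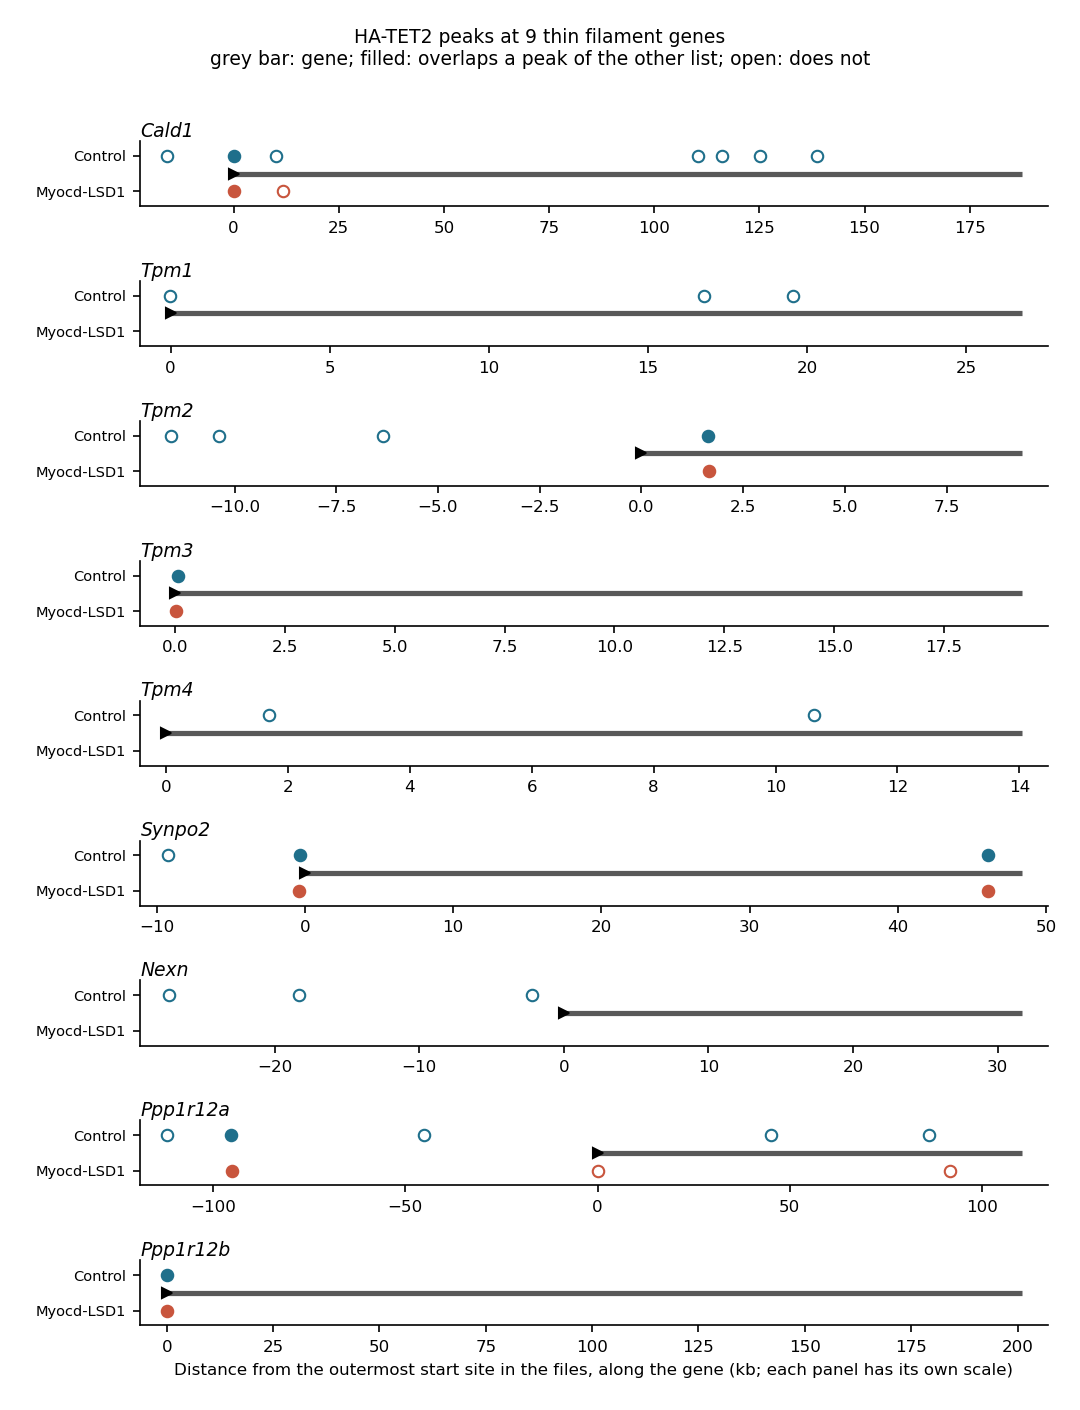
Position of every peak of the 9 genes along the gene, as distance in kb from the outermost start site to which the files assign a peak (triangle), with Control above and Myocd-LSD1 below the grey gene bar and filled points for peaks that overlap the other list. The filled points lie at the start sites of Cald1, Tpm3, Synpo2 and Ppp1r12b, inside Tpm2 and Synpo2 and upstream of Ppp1r12a; the upstream open point of Synpo2 lies in an intron of a longer transcript.

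Peak by peak, 7 of 29 in Control overlapped a Myocd-LSD1 peak by 1 bp or more, and are called shared (24.1%, 10.3 to 43.5), beside 22.0% of all Control peaks. In the other direction 7 of the 10 Myocd-LSD1 peaks lay on a Control peak (70.0%, 34.8 to 93.3), beside 59.4% of all. Within 1 kb of a start site 4 of 6 Control peaks were shared (66.7%, 22.3 to 95.7), beside 44.5% of all such peaks, and farther away 3 of 23 (13.0%, 2.78 to 33.6), beside 15.2%. The background was inside all 4 intervals. Within 1 kb the share was above the background, 66.7% against 44.5%, but from 6 peaks the interval is too wide to set the 9 genes apart.

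**Figure D3:**
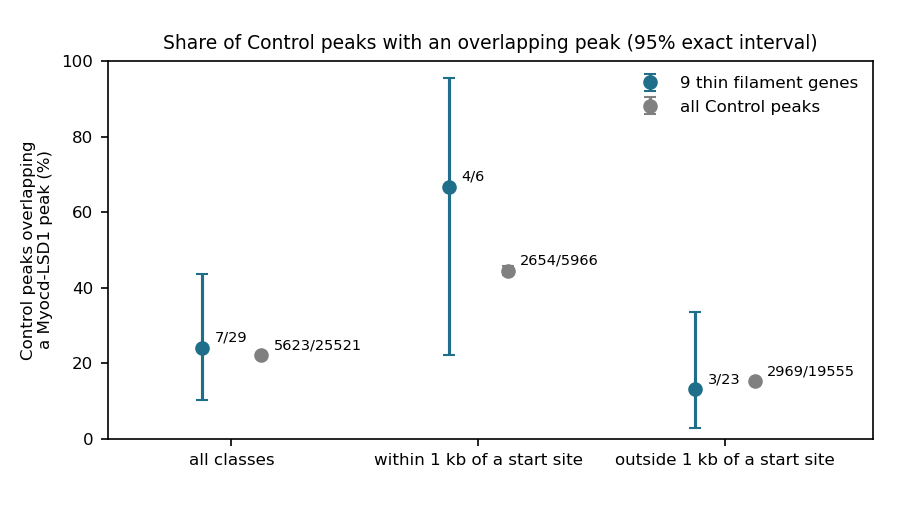
Percentage of Control peaks that overlap a Myocd-LSD1 peak (y axis) for the 9 genes and for all Control peaks, in all classes and within or outside 1 kb of a start site (x axis); points are shares, bars are exact 95% intervals and the fractions give the counts. The grey point lies inside the interval of the 9 genes in each class, for example 44.5% inside 22.3 to 95.7.

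The peaks of the 9 genes were of ordinary strength. Their median fold enrichment in Control was 4.92 (range 3.20 to 14.5), against 5.24 over the whole list, and 13 of the 29 lay above the list's median. The median width was 270 bp against 315 bp and the median pile-up 7 fragments, as in the whole list. In Myocd-LSD1 the median fold was 5.22 (2.81 to 10.1) against 4.72, with 5 of 10 above the list's median. By class, 12 of the 29 Control peaks lay in introns (41.4%, against 29.8% of all peaks), some of them introns of the neighbouring genes Tln1 and Miga1. Promoters held 9 (31.0%, against 30.3%), distal intergenic DNA 4 (13.8%, against 26.9%) and exons 3 (10.3%, against 10.7%). The remaining 1 lay downstream of a gene end (3.45%, against 1.07%). Of the 10 Myocd-LSD1 peaks 6 lay in promoters (60%, against 44.4% of all peaks of that list), 4 of them across a start site (40%, against 21.1%). Whether these class shares differ from those of all peaks was not tested.

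**Figure D4:**
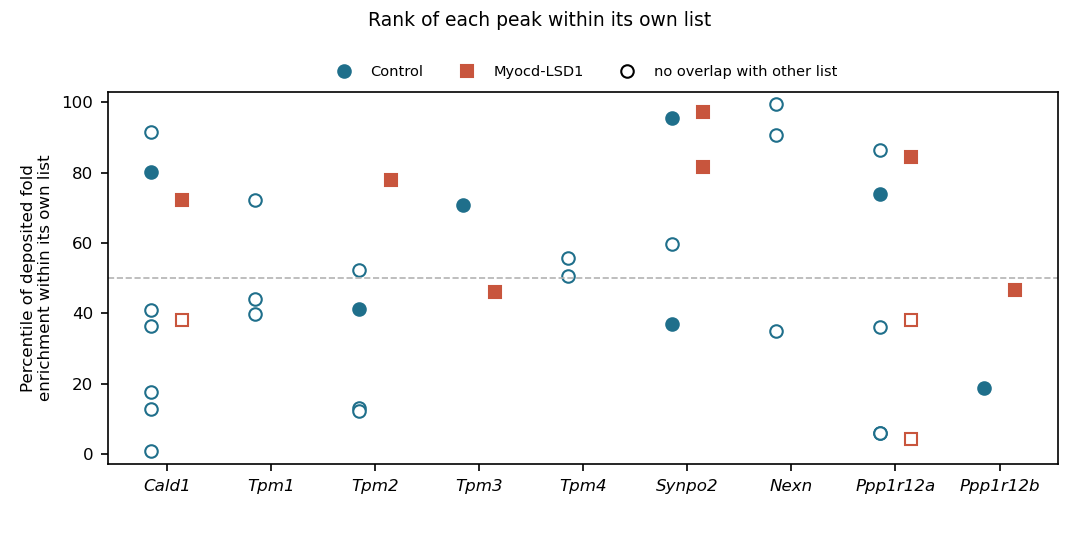
Percentile of each peak's deposited fold enrichment within its own list (y axis) for the 9 genes (x axis), with circles for Control, squares for Myocd-LSD1 and open symbols for peaks that do not overlap the other list. Synpo2 is near the top in both lists (95.5 and 97.2), the highest Nexn peak (99.5) is open, and Ppp1r12b is shared although it ranks at 18.8 in Control.

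The 4 tropomyosin genes differed in where TET2 was found. Tpm3, which encodes a tropomyosin of the cytoskeleton and of slow skeletal fibres, had 1 peak in each list, both across its start site: rn6 chr2:189429773-189430309 in Control (fold 6.38, 9 fragments) and chr2:189429871-189430133 in Myocd-LSD1 (fold 4.54, 5 fragments). The Myocd-LSD1 peak lay wholly inside the Control peak. Tpm2, the β-tropomyosin gene, had its shared peak inside the gene, 1163 bp from a start site, at chr5:59024205-59024468 in Control (fold 4.92) and chr5:59024162-59024468 in Myocd-LSD1 (fold 6.32). The 2 peaks ended at the same base and each rested on 8 fragments. The other 3 Control peaks given to Tpm2 lay 6232 to 11462 bp upstream of it, at and in the neighbouring genes, among them a peak in an intron and one in an exon of Tln1, the gene of the actin linker talin.

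Tpm1 encodes α-tropomyosin, the main muscle isoform, and had 3 Control peaks but 0 in Myocd-LSD1. One lay across the start site (chr8:72841409-72841637, fold 4.87, 5 fragments). The others lay in exons farther into the gene (chr8:72824524-72824961, fold 6.50, 13 fragments, and chr8:72821766-72822111, fold 5.01, 11 fragments). The nearest Myocd-LSD1 peak to any of them was 21017 bp away. Tpm4, a tropomyosin of the cytoskeleton, likewise had Control peaks only, 1549 bp inside the start site (chr16:19398033-19398302, fold 5.26, 9 fragments) and in intron 7 of 7 (chr16:19389066-19389379, fold 5.52, 8 fragments), with the nearest Myocd-LSD1 peak 10938 bp away. For weak start-site peaks a missing counterpart is common. Of all Control peaks within 1 kb of a start site with 5 fragments or fewer, as at Tpm1, 22.1% were shared.

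Caldesmon carried the most peaks of the 9 genes, 7 in Control, a number reached or passed by 2.25% of the 13312 genes with an assigned Control peak. Cald1 spans 187.4 kb in the files, and Ppp1r12b, with 1 Control peak, spans 201 kb. The 2.25% is over genes of all lengths, and whether the number of peaks follows gene length was not tested. Only the peak across the outer start site was shared, at chr4:62103878-62104211 in Control (fold 7.17, 10 fragments) and chr4:62103948-62104157 in Myocd-LSD1 (fold 5.90, 6 fragments), the second wholly inside the first. The weakest Control peak, of 3 fragments, lay 719 bp upstream of the inner start site (chr4:62219987-62220225, fold 3.20). It stood at percentile 0.797 of its list. The strongest Control peak of the gene was another, in intron 2 of 12 (chr4:62242524-62243004, fold 8.96, 20 fragments), and the nearest Myocd-LSD1 peak to it was 126670 bp away.

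The remaining Cald1 peaks were weaker. In intron 1 of 12 each list had a peak, chr4:62113702-62114272 in Control (fold 4.75, 6 fragments) and chr4:62115602-62115853 in Myocd-LSD1 (fold 4.28, 4 fragments), but 1329 bp of DNA lay between them. The 2 other Control peaks of intron 2 had 4 and 7 fragments, and the one 15782 bp upstream of the gene had 4. Myocd-LSD1 peaks were thus found in the first 12 kb of the gene, and of the 5 Control peaks downstream of the start, the 4 beyond 100 kb were each at least 98411 bp from a Myocd-LSD1 peak.

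Synaptopodin 2 and nexilin, both actin-binding proteins of muscle, were at opposite ends. Synpo2 had the strongest shared peak of the 9 genes, just upstream of a start site, at chr2:227303678-227304160 in Control (fold 10.2, 24 fragments, percentile 95.5) and chr2:227303766-227304168 in Myocd-LSD1 (fold 10.1, 15 fragments, percentile 97.2). In the authors' annotation that start belongs to the shorter of 2 transcripts, since a Control peak 9125 bp upstream of it (chr2:227312730-227312961, fold 5.72) lay in intron 1 of 4 of the longer one. A second shared peak lay in intron 4 of 4, at chr2:227257404-227257620 in Control (fold 4.79, 6 fragments) and chr2:227257417-227257620 in Myocd-LSD1 (fold 6.65, 7 fragments), and both ended at the same base.

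Nexn had 3 Control peaks and none in Myocd-LSD1, although 2 of them were the peaks with the highest and the third highest pile-up of the 29. These lay in intron 10 of 13 of the neighbouring gene Miga1 (chr2:257502599-257503246, fold 14.5, 41 fragments) and 1832 bp upstream of the Nexn start site (chr2:257486439-257487223, fold 8.76, 21 fragments). The last, of 5 fragments, was in intron 7 of 13 of Miga1. The Myocd-LSD1 peak nearest to any of them was 60783 bp away. Outside 1 kb of a start site, 5 Control peaks of the 9 genes had more than 10 fragments, namely these 2 Nexn peaks, the 2 Tpm1 exon peaks and the Cald1 peak of intron 2. None of the 5 was shared, beside 30.7% (29.5 to 31.9) of all such Control peaks. The limit for this count of 0, taken as 3 counts of the 5, is 60%. It is approximate and not a Clopper-Pearson interval. At 6 to 10 fragments 3 of 12 peaks of the 9 genes were shared, beside 11.5% of all such peaks. At 1 to 5 fragments 0 of 6 were shared, beside 4.71%.

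The myosin phosphatase genes were covered in different ways. Ppp1r12b had 1 peak in each list, both across the start site: chr13:51784358-51784648 in Control (fold 4.13) and chr13:51784552-51784786 in Myocd-LSD1 (fold 4.54). Each rested on 4 fragments, they shared 97 bp and their summits lay 189 bp apart, the widest gap among the 7 shared pairs. Ppp1r12a was the only one of the 9 genes with a start-site peak in Myocd-LSD1 and no promoter peak in Control. That peak (chr7:51515002-51515636, fold 4.28) rested on 4 fragments, and the nearest Control peak was 44704 bp away, in intron 2 of 25 (chr7:51470120-51470297, fold 7.99, 9 fragments).

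The shared Ppp1r12a peak was far upstream, 95 kb from the start site, at chr7:51610458-51610895 in Control (fold 6.61) and chr7:51610482-51610693 in Myocd-LSD1 (fold 6.94, percentile 84.4), with 7 fragments in each. It lay in intergenic DNA and was given to Ppp1r12a as the nearest gene only. The other 3 Control peaks of the gene had 3 to 5 fragments, and 2 of them lay 45135 and 112012 bp upstream. A Myocd-LSD1 peak in an exon (chr7:51423683-51423852, fold 2.81) rested on 2 fragments, the lowest pile-up in its list, and lay 5302 bp from the nearest Control peak.

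In 4 of the 7 shared pairs the Myocd-LSD1 pile-up equalled or passed the Control one. The Myocd-LSD1 pile-up divided by the Control pile-up was 1 at Tpm2, Ppp1r12a and Ppp1r12b, 1.17 at the Synpo2 intron, and 0.556 to 0.625 at the start sites of Tpm3, Cald1 and Synpo2. The median of 1 stands beside 0.583 (interquartile range 0.400 to 0.818) over 5659 pairs, and beside 0.362 for the background coverage. The 0.583 is not matched for Control pile-up. It takes in Control pile-ups up to 346, while those of the 7 pairs were 4 to 10, and 24 at the Synpo2 start. Over all pairs, the commonest Myocd-LSD1 pile-up was 4 at a Control pile-up of 4, as at Ppp1r12b. It was 5 at a Control pile-up of 7, as at Ppp1r12a, and 4 at one of 8, as at Tpm2. How far matching would narrow the gap was not tested. A pair is seen only where both lists made a call, and a weak Control peak is paired only if its counterpart is not much lower, so these ratios describe called pairs and not a change. Summits lay 28 to 189 bp apart (median 46 bp, against 80 bp over all 5679 pairs). A common edge, as at Tpm2 and the Synpo2 intron, was found in 2 of 7 pairs (28.6%, 3.67 to 71.0), beside 9.53% of all pairs.

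**Figure D5:**
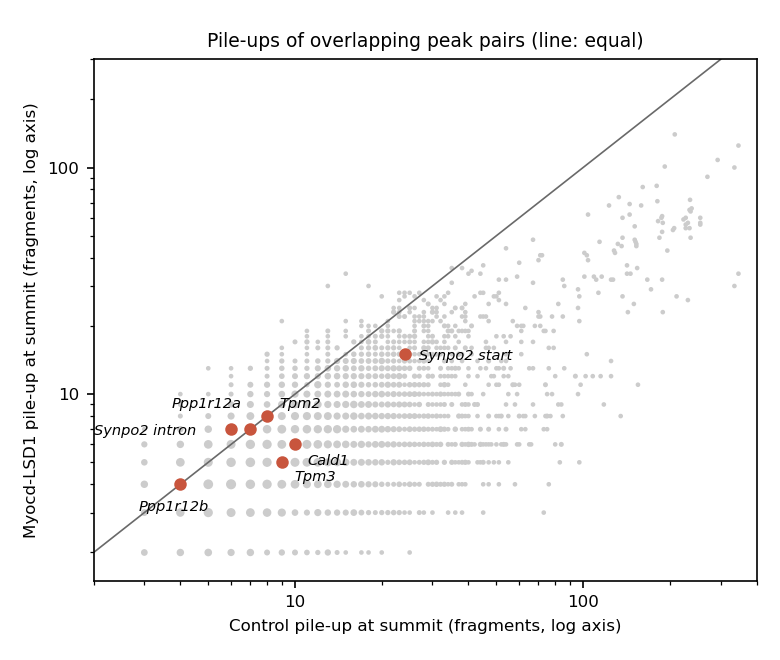
Pile-up at the summit in Myocd-LSD1 (y axis) against Control (x axis), in fragments on log axes, for all overlapping pairs (grey, larger where more pairs coincide) and the 7 pairs of the 9 genes (red). Tpm2, Ppp1r12a and Ppp1r12b lie on the line of equal pile-up, while Cald1, Tpm3 and the Synpo2 start lie below it.

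Other genes of actin filaments and contraction, 40 in a list that included actins, myosins and their regulators, gave similar shares. A Control peak was found at 33 of them and a Myocd-LSD1 peak at 18, with 17 in both (51.5% of those in Control, 33.5 to 69.2), beside the same 47.1% of all genes. Of their 93 Control peaks 21 were shared (22.6%, 14.6 to 32.4). Within 1 kb of a start site 20 of the 40 had a Control peak, and 11 of these also had a Myocd-LSD1 peak within 1 kb (55.0%, 31.5 to 76.9), beside 47.4% of all genes. The 2 peaks of a gene need not overlap. At Myl6 they did not, with the Control peak at 729 bp and the Myocd-LSD1 peak at -99 bp from a start. The 11 were Actb, Tmod3 (a tropomodulin, which caps tropomyosin-coated filaments), Myl6, Myh9, Myh10, Rock2, Ppp1cb, Dapk3, Actn1, Actn4 and Vcl. By assigned gene, the 9 with such a peak in Control alone were Acta2, Tagln2, Smtnl2, Tmod2, Mylk, Myl9, Myl12a, Rock1 and Synpo2l. The single Control peak of Myl12a, across its start, nevertheless overlapped a Myocd-LSD1 peak that was assigned to another gene. Counts by gene do not take in such cases. Ppp1cb encodes the catalytic subunit that works with Ppp1r12a and Ppp1r12b, and its single peak lay across the start site in each list (fold 10.2 in Control and 7.37 in Myocd-LSD1). Rock1, Rock2 and Dapk3 encode kinases that inhibit this phosphatase. Rock1 had 1 Control peak, across its start (fold 7.07), and 0 in Myocd-LSD1. Rock2 had its peak at -417 bp from the start in Control (fold 6.84) and at -399 bp in Myocd-LSD1 (fold 5.66), and the Dapk3 peak lay across the start in both (fold 3.15 and 5.72). Ppp1r12c, the remaining gene of the Ppp1r12 family, had 1 Myocd-LSD1 peak across its start (fold 3.32) and no Control peak, as at the start of Ppp1r12a.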

How the data were processed

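HA-TET2 CUT&Tag was measured in 2 Control and 1 Myocd-LSD1 samples, grouped by cell line. The tools were Bowtie2, deepTools, MACS2 and ChIPseeker and the build was rn6, per the submitters' processing notes, which name no versions here. The authors deposited 1 annotated peak list per group; the 2 Control samples point to 1 file, and no label says if their reads were merged. In the authors' deposited tables the fold enrichment is a ratio, −log10 p-values and q-values belong to each peak (lowest −log10 q-value 1.32 in Control and 1.31 in Myocd-LSD1), and the score is the −log10 q-value times 10, truncated. Positions, distances to start sites and summit offsets are in bp; starts are given counted from 1. The missing peak numbers were 45 in Control and 23 in Myocd-LSD1, peak 1 of each list, whose name stands in the header, among them.

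Peaks that overlap by 1 bp or more count as shared (Python 3.11.15, pandas 2.3.3, SciPy 1.17.1). The pile-up k and local background λ were solved from fold = (k + 1)/(λ + 1) and the p-value as a Poisson upper tail above k, the formulas of MACS2. A whole k was taken when it met the deposited −log10 p within 0.001, or with a misfit under 0.1 of the next best; this held for 99.9% of Control and 99.8% of Myocd-LSD1 peaks. Both steps were tested on simulated data. Fragments of amplified libraries are not independent molecules. The limit for a count of 0 is 3 counts of the total. Promoter windows come from RefSeq (GRCr8); no genome of build rn6 was used here, so no sequence of a peak is printed.

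All peaks of the 9 genes are reported, and of the 40 other genes those with a peak within 1 kb of a start site in both lists; Ppp1r12c and the 9 genes of Control alone were named after their values were seen. Intron numbers are the authors'; their exon numbers did not follow the order of their intron numbers at Ppp1r12a and are left out. The genes and lists were chosen with earlier results of these data known. Other overlaps, thresholds, list lengths, assignment rules and classes were tried.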

Additional observations from a re-analysis of the deposited data

How the results depend on the processing

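The share of Control peaks of the 9 genes that overlap a Myocd-LSD1 peak (24.1%) stayed inside its interval with a reciprocal overlap of 50% (13.8%, all peaks 14.4%), a gap of at most 500 bp (24.1%, 23.5%) and a −log10 q-value of at least 2 in both lists (26.9%, 21.6%; 26 and 9 peaks left). Assignment by gene symbol alone left every count as it was. By host gene alone it left 11 Control and 3 Myocd-LSD1 peaks, a share of 9.09% (22.0% of all) and 3 genes in both lists. Host genes are named for intron and exon peaks only, so this 22.0% is not matched for class. Of all Control peaks in introns 14.4% were shared, and of those in exons 8.52%. With the Control list shortened to the length of the Myocd-LSD1 list, 9 Control peaks were left, of which 44.4% were shared (38.7% of all), at 4 genes. Within 3 kb of a start site there were 9 and 6 peaks with a share of 55.6% (37.7% of all), and within 1 kb 6 and 5 peaks with 66.7% (44.1% of all) at 4 genes. The share lay outside the interval of the main setting for host genes, for the shortened list and within 3 kb and 1 kb of a start. It lay above that of all peaks in these last settings and below it for host genes and reciprocal overlap. No paired analysis was possible because each group is 1 list without columns per replicate, nor was any replicate left out, for the same reason. Pile-ups of the 9 genes ran from 2 to 41 fragments, which limits what a missing call shows.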
